A study of Rattus norvegicus with 16 samples.

Results

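Microglia from irradiated rats were compared with microglia from sham-irradiated rats when both groups had been given lipopolysaccharide (LPS), which asks what an earlier irradiation changes under an immune challenge. The groups compared are 8 of the 16 libraries of the series, 4 from sham rats and 4 from irradiated rats, chosen by the column names of the deposited count table. All animals were male Wistar (Hsd/Cpb:WU) rats, and the labels name no transgene or other allele. The irradiated rats had received 14 Gy of X-rays and the sham rats no dose, and LPS was injected into the peritoneal cavity 6 weeks later. The other 8 libraries, 4 sham and 4 irradiated, came from rats that were given phosphate-buffered saline (PBS) in place of LPS. They show where the response to irradiation differed, and they also enter the filter and the shared estimate of spread behind all p-values. Brains were dissociated mechanically in the cold, and microglia were sorted as live cells with high CD11b and intermediate CD45, a gate that other myeloid cells of the brain can enter. The sources used here give neither the LPS dose nor the interval from injection to tissue collection. Separate animals are not named in the labels, and the p-values reflect only how far these libraries spread, which may be partly technical.

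Microglia are the resident macrophages of the brain and carry a homeostatic programme of surface receptors and transcription factors that is lowered when they become activated. LPS, a component of the outer membrane of Gram-negative bacteria, is bound by CD14 and recognised by the receptor TLR4 with its partner MD-2 (gene Ly96), which leads through the adaptor MyD88 to NF-kB and inflammatory cytokines and through the adaptor TRIF to type I interferon. Microglia with a history of injury or ageing are known to enter a primed state, in which a later peripheral challenge meets cells that already express activation markers.

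Library totals were 16257030 to 19415389 counts in the sham rats given LPS and 18581343 to 61435103 counts in the irradiated rats given LPS. Mitochondrial genes held 0.599 to 0.648% of the counts in the sham group and 0.83 to 1.33% in the irradiated group. Defining transcripts of microglia were present in all 8 libraries but at lower levels in the irradiated group, with Tmem119 at 4074 to 7194 CPM (a gene's count scaled to the size of its library) in the sham group and 1171 to 1434 CPM in the irradiated group. Aif1 (IBA1), which macrophages share, was at 963 to 1148 CPM and 1067 to 1219.8 CPM. Some libraries stood apart. Irradiated LPS library 1 had the highest summed levels of neutrophil, neuron and red cell transcripts of the 8 libraries, and sham LPS library 1 had the lowest summed levels of interferon response, T and NK cell and border-associated macrophage transcripts, and the counts of these lists are given with and without them.

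With LPS in both groups, 1926 genes were higher and 1632 genes were lower in irradiated than in sham microglia among 12308 genes with enough reads, at a Benjamini-Hochberg adjusted p under 0.05 in edgeR's quasi-likelihood test. The called genes were 28.9% of those tested, of which the higher genes made up 15.6% of all genes tested and the lower genes 13.3%. Shares given for lists below are to be read against these values. Changes of at least 2-fold were mostly increases, with 1006 genes higher and 435 genes lower by that much. The 4 libraries of each group did not overlap in CPM for 1899 higher and 1495 lower genes, 15.4% and 12.1% of the genes tested. Among the pathway lists, cytosolic ribosomal proteins, chemokines and type I interferon response genes held the largest shares of called increases, and homeostatic microglial genes the largest share of called decreases. In sorted bulk cells, a lower level of a transcript can come from fewer cells of a type or from less RNA per cell, and these cannot be told apart here.

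**Figure D1:**
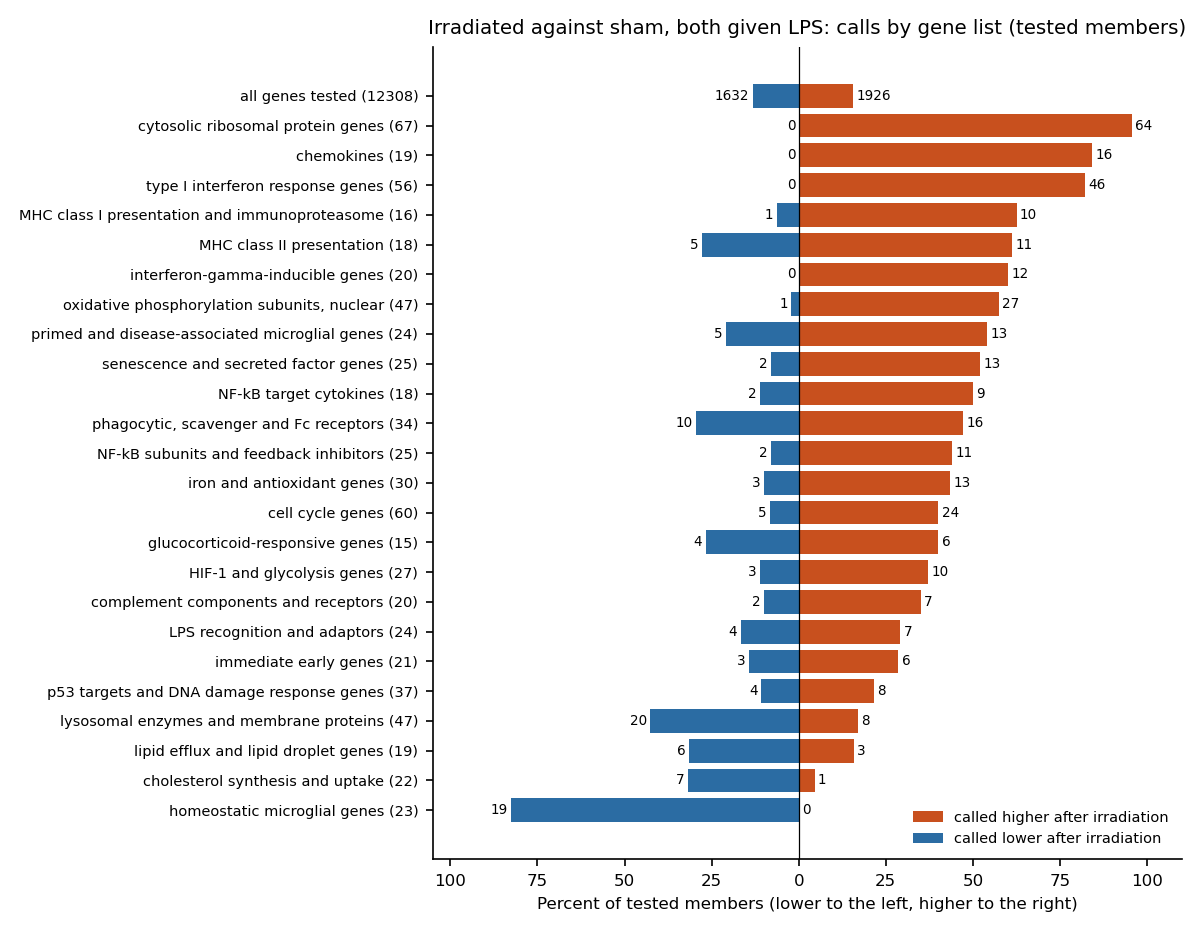
Percent of tested list members called higher (right) or lower (left) in irradiated than in sham rats given LPS, for the pathway lists, with all 12308 genes tested on top and the numbers of called members beside the bars. Of the 67 ribosomal protein genes 64 were higher, and of the 23 homeostatic genes 19 were lower and none was higher.

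The homeostatic programme of microglia was lower in the irradiated rats. Of 23 tested homeostatic genes, 19 (82.6%, against 13.3% of all genes) were lower and 0 were higher, and the median log2 fold change of the list was -1.22, against 0.02 over all genes tested. Tmem119, a transmembrane protein used as a microglial marker, was at 5461, 6543, 4074 and 7194 CPM in the sham libraries 1 to 4 and at 1198, 1434, 1416 and 1171 CPM in the irradiated libraries 1 to 4. Every irradiated library lay below every sham library, and the log2 fold change was -2.16 ± 0.19 (SE). Cx3cr1, the receptor for the neuronal chemokine fractalkine, was at 10831, 11598, 11380.1 and 10891 CPM in sham and 3880.5, 5899, 4872 and 4737 CPM in irradiated libraries, a log2 fold change of -1.21 ± 0.10 with no overlap between the groups. Sall1, a transcription factor that maintains microglial identity, was at 276, 341, 266 and 271 CPM in sham and 90.6, 124, 119.7 and 111 CPM in irradiated libraries. The groups were again separate, and the log2 fold change was -1.37 ± 0.10. The purinergic receptors P2ry12 and P2ry13, with which microglia sense nucleotides, fell with log2 fold changes of -1.37 ± 0.19 and -1.55 ± 0.11. P2ry12 was at 429, 319.7, 298 and 255 CPM in sham and 148, 133, 99.2 and 125 CPM in irradiated libraries. The receptor for colony-stimulating factor 1, Csf1r, on which microglial survival depends, fell less, with a log2 fold change of -0.78 ± 0.07, and Tgfbr1, a receptor for TGF-beta, with one of -1.26 ± 0.10. The members that did not pass the test included Olfml3, Rtn4rl1 and Fcrl2, with log2 fold changes of -1.45, 0.16 and 1.84, and 1 member was higher without irradiated LPS library 4.

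Part of the gene list of primed and disease-associated microglia was higher. Of 24 tested members, 13 (54.2%, against 15.6% of all genes) were higher and 5 (20.8%, against 13.3%) were lower. The median log2 fold change was 0.43. Clec7a, the beta-glucan receptor dectin-1, was at 15.7, 42.9, 25.3 and 30.9 CPM in sham and 772, 897, 883 and 684 CPM in irradiated libraries. No library of the groups came near the other group, and the log2 fold change was 4.82 ± 0.28 (adjusted p = 1.02e-08). Gpnmb, a glycoprotein of lysosomes and the cell surface, was at 27.3, 35.5, 21.3 and 24.2 CPM in sham and 537, 538, 753 and 454 CPM in irradiated libraries, a log2 fold change of 4.40 ± 0.29. Lgals3, which encodes galectin-3, was at 6.02, 18.5, 9.65 and 8.28 CPM in sham and 194, 161, 189 and 186 CPM in irradiated libraries, a log2 fold change of 4.10 ± 0.30. Both genes were high in all 4 irradiated libraries and low in all 4 sham libraries. Axl, a receptor tyrosine kinase that takes up dying cells, was at 33.1, 48.6, 26.3 and 23.7 CPM in sham and 584, 429, 456 and 418 CPM in irradiated libraries, a log2 fold change of 3.84 ± 0.24. The integrin Itgax (CD11c), the NADPH oxidase subunit Cybb, lysozyme (Lyz2) and the lysosomal protein Cd68 rose with log2 fold changes of 3.56 ± 0.24, 3.37 ± 0.21, 2.67 ± 0.16 and 2.33 ± 0.12. The inhibitory receptor Lilrb4 and the protease inhibitor Cst7 rose as well, with log2 fold changes of 4.37 ± 0.33 and 3.07 ± 0.45. The members that fell were the lipid-sensing receptor Trem2 (-1.09 ± 0.09), the cathepsins Ctsl (-1.12 ± 0.14) and Ctsd (-0.78 ± 0.12), the tetraspanin Cd9 (-0.88 ± 0.16) and the lipid carrier Apoe (-0.37 ± 0.09), all as log2 fold changes. Apoe was at 14906, 14050.1, 14147 and 15874 CPM in sham and 11635, 11810.0, 11879 and 10262 CPM in irradiated libraries, so its groups were separate although the change was small. Of the 13 increases, 13 were also called between irradiated and sham rats given PBS, as were the 5 decreases and the 19 homeostatic decreases. Monocyte markers summed to 1627 to 2139 CPM in irradiated and 717 to 884 CPM in sham libraries, and their part in these increases was not tested.

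**Figure D2:**
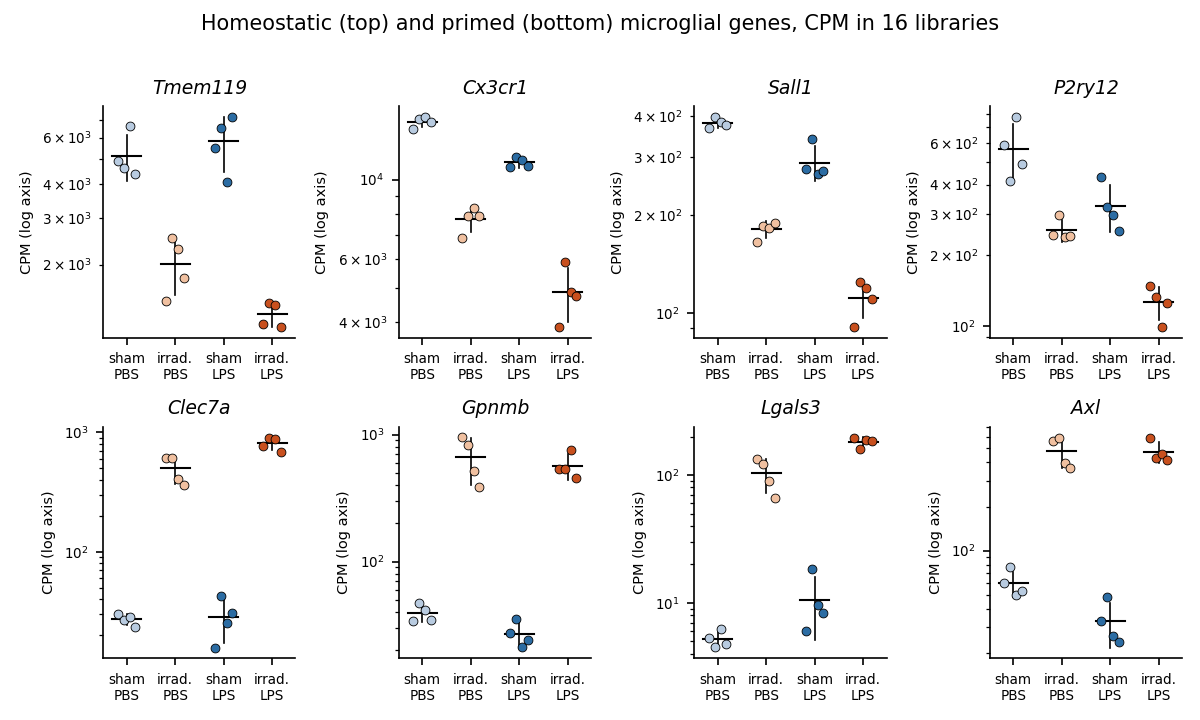
CPM (log axis) in the 16 libraries of 4 homeostatic genes (top: Tmem119, Cx3cr1, Sall1, P2ry12) and 4 genes of primed microglia (bottom: Clec7a, Gpnmb, Lgals3, Axl), with points for libraries, bars for group means and lines for 1 SD. The 4 irradiated LPS libraries lie below the 4 sham LPS libraries in every upper panel and above them in every lower panel.

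Cytokines that NF-kB controls did not move together. Of 18 tested, 9 were higher (50%, against 15.6% of all genes) and 2 were lower (11.1%, against 13.3%). The median log2 fold change was 0.88. Il1b, the interleukin-1 beta precursor, was at 213, 186, 412 and 236 CPM in sham and 1221, 792, 795 and 1776 CPM in irradiated libraries. All irradiated libraries were above all sham libraries, and the log2 fold change was 2.13 ± 0.27 (adjusted p = 3.33e-05). Its antagonist Il1rn rose with a log2 fold change of 2.90 ± 0.46, from 5.40 to 39.1 CPM in sham to 143 to 232 CPM in irradiated libraries. The interleukin-27 subunit Ebi3 rose with a log2 fold change of 2.57 ± 0.22, and the TNF family ligand Tnfsf9 with 2.51 ± 0.20. The anti-inflammatory cytokine Il10 rose too, with a log2 fold change of 2.38 ± 0.69, but at low levels of 0.0621 to 2.34 CPM in sham and 3.02 to 12.8 CPM in irradiated libraries. Tnf was not among the increases. It was at 435, 336, 660.1 and 352 CPM in sham and 199, 267, 312 and 474 CPM in irradiated libraries, the groups overlapped, and the log2 fold change of -0.51 ± 0.32 did not pass the test (adjusted p = 0.264, and 0.0927 to 0.617 over 18 alternative analyses). Il6 was lower, at 16.8, 27.6, 28.9 and 23.2 CPM in sham and 13.1, 12.7, 10.4 and 11.6 CPM in irradiated libraries, a log2 fold change of -1.01 ± 0.30 with no overlap. The interleukin-12 subunit Il12a also fell, with a log2 fold change of -0.45 ± 0.15 and overlapping groups. The count of lower members was 1 without sham LPS library 1 or 3 and without irradiated LPS library 2 or 3. Il1a, Il18 and Osm had log2 fold changes of 0.67, 0.11 and -0.41 and did not pass the test.

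Most chemokines rose. Of 19 tested, 16 (84.2%) were higher and 0 were lower, and the median log2 fold change was 2.40. Ccl2, which attracts monocytes, was at 42.9, 61.4, 78.2 and 62.8 CPM in sham and 396, 160.2, 118 and 308 CPM in irradiated libraries, a log2 fold change of 2.0 ± 0.40. The groups did not overlap, and the irradiated libraries spread widely. Cxcl10, an interferon-induced ligand of the lymphocyte receptor CXCR3, was at 106, 98.5, 166 and 78.2 CPM in sham and 520.1, 468, 353 and 493 CPM in irradiated libraries, a log2 fold change of 2.03 ± 0.26. The other CXCR3 ligands Cxcl9 and Cxcl11 rose with log2 fold changes of 2.89 ± 0.46 and 3.11 ± 0.39. Cxcl16, a transmembrane chemokine that also binds oxidised lipoproteins, was at 279, 237, 366 and 298 CPM in sham and 1680.0, 1738, 1497 and 1313 CPM in irradiated libraries, a log2 fold change of 2.40 ± 0.17 with every irradiated library above every sham library. The B cell chemokine Cxcl13 rose by 2.74 ± 0.51, the neutrophil attractants Cxcl1 and Cxcl2 by 2.75 ± 0.47 and 2.40 ± 0.36, and Ccl5, a product of T and NK cells as well as of myeloid cells, by 2.41 ± 0.54 on the log2 scale. Ccl12, Cxcl14 and Ccl9 did not pass the test, with log2 fold changes of 0.84, 0.74 and -2.10. Markers of T and NK cells moved in the same direction, with a summed level of 961 to 1757 CPM in irradiated and 155 to 427 CPM in sham libraries. That sum includes Ccl5 itself, at 133 to 339 CPM in irradiated and 12 to 82.5 CPM in sham libraries. The part of these cells in the chemokine results was not tested.

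The signalling receptor for LPS did not pass the test. Tlr4 was at 76.3, 78.2, 94.9 and 62.5 CPM in sham and 84.6, 91.1, 95 and 81.8 CPM in irradiated libraries, with a log2 fold change of 0.18 ± 0.14 and overlapping groups (adjusted p = 0.385). The adaptors Myd88 and Tirap, the kinases Irak1, Irak4 and Map3k7 and the TLR4 partner Ly96 did not pass it either, with log2 fold changes from -0.05 to 0.45. Cd14 was at 228, 1146, 1527 and 656 CPM in sham and 2403, 2119, 2067 and 3276 CPM in irradiated libraries, a log2 fold change of 1.47 ± 0.48 (adjusted p = 0.034). The sham group spread over a wide range below the irradiated group, and the call was lost in 6 of 18 alternative analyses, including those without irradiated LPS library 1 (adjusted p = 0.061), sham LPS library 4 (0.089) or irradiated LPS library 4 (0.088). Aoah and Irak3, which limit the response to LPS, were higher. Aoah, an enzyme that inactivates LPS by removing its acyl chains, was at 8.32, 12.8, 12.8 and 9.34 CPM in sham and 111, 101, 96.1 and 106 CPM in irradiated libraries, a log2 fold change of 3.26 ± 0.17. Irak3, an inhibitory member of the IRAK family, rose with a log2 fold change of 2.79 ± 0.34, from 2.36 to 6.72 CPM to 23.5 to 40.8 CPM. Cd180, a TLR4-like receptor, fell with a log2 fold change of -1.10 ± 0.12, and Tlr2, which recognises bacterial lipoproteins, with one of -0.32 ± 0.11. Of 24 tested recognition genes and adaptors, 7 were higher (29.2%, against 15.6% of all genes) and 4 were lower (16.7%, against 13.3%). The median log2 fold change was 0.15. The lower members numbered 2 without irradiated LPS library 1 or sham LPS library 3.

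Some inhibitors that NF-kB itself induces were among the increases. Of 25 tested NF-kB subunits and feedback genes, 11 were higher (44%, against 15.6% of all genes) and 2 were lower (8%, against 13.3%). The median log2 fold change was 0.53. Tnip1, which binds the ubiquitin-editing enzyme A20, was at 34.2, 30.3, 23 and 24.9 CPM in sham and 164, 121, 113 and 196 CPM in irradiated libraries, a log2 fold change of 2.40 ± 0.18 with no overlap. Tnfaip3, the gene of A20, was at 147, 120.1, 129.7 and 109 CPM in sham and 295, 177, 202 and 311 CPM in irradiated libraries, a log2 fold change of 0.96 ± 0.17. Atf3, a repressor of cytokine genes, rose with a log2 fold change of 2.22 ± 0.34. Rela fell with a log2 fold change of -0.39 ± 0.12, and Trib1 with one of -0.64 ± 0.11. The subunits Nfkb1, Nfkb2, Rel and Relb and the inhibitors Nfkbia, Socs1 and Socs3 did not pass the test, with log2 fold changes from 0.01 to 0.77. Without sham LPS library 2 or without sham LPS library 4, 7 members of the list were higher, and 1 was lower without sham LPS library 3 or 4 or irradiated LPS library 4.

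Type I interferon response genes were mostly higher in the irradiated rats. Of 56 tested, 46 (82.1%) were higher and 0 were lower, the median log2 fold change was 1.25, and the counts without sham LPS library 1 and without irradiated LPS library 1 were 44 and 45. The summed level of the list was 9966 to 13275 CPM in the irradiated libraries and 3032 to 6634 CPM in the sham libraries. Transcription of these genes is driven by the complex ISGF3 and by interferon regulatory factors at the interferon-stimulated response element (ISRE). To show what such elements look like at the genes described here, the RefSeq promoters of the rat (build GRCr8), matched by symbol, were searched over the 250 bases before the start for the ISRE core (GAAA, any 2 bases, GAAA) on both strands, with overlapping matches allowed. Windows of 60 bases are printed for the 6 members with the smallest p-values among those with a match, 5′ to 3′ on the gene's strand, with capitals for each match of the core or of its reverse complement.
Lgals3bp: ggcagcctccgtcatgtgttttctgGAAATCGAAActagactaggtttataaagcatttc
Gbp2: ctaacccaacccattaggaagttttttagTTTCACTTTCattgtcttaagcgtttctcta
Samd9: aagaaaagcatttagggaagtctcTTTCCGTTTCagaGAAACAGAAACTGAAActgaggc
Lgals9: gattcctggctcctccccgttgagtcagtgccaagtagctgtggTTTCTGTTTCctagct
Ifi44l: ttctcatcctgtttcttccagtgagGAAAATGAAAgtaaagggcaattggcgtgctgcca
Nmi: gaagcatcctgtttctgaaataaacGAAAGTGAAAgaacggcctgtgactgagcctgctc

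The windows lie at chr10:104127864-104127923 (minus strand, Lgals3bp), chr2:234005667-234005726 (plus strand, Gbp2), chr4:32138959-32139018 (minus strand, Samd9), chr10:64428071-64428130 (minus strand, Lgals9), chr2:243328639-243328698 (plus strand, Ifi44l) and chr3:56848609-56848668 (minus strand, Nmi), and the Samd9 window holds 3 matches, which overlap in part. Of the 56 tested members, 45 had a promoter in the table, and 26 of these (57.8%) held the core. It was in 22 of 37 (59.5%) members that were called higher and had a promoter, in 5.9% of all genes called higher, in 2.11% of those called lower and in 3.41% of all 33469 promoters of the table. A match describes letters and not a bound site. The NF-kB site (GGGA, then A or C, then TTTCC), searched in the same way, was in 0 of the 45 promoters and in 0.164% of all promoters. It was also in 0 of the 11 promoters found for the NF-kB target cytokines, so its absence sets no contrast with the ISRE core.

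Among the genes whose promoters are printed, Lgals3bp, a secreted partner of galectins, was at 179, 205, 239 and 202 CPM in sham and 979, 1417, 1192 and 1146 CPM in irradiated libraries. The groups were far apart and tight, and the log2 fold change was 2.52 ± 0.14 (adjusted p = 7.52e-10). Gbp2, a guanylate-binding protein that acts on intracellular bacteria, was at 88.2, 127, 193 and 116 CPM in sham and 477, 476, 338 and 495 CPM in irradiated libraries, a log2 fold change of 1.77 ± 0.18. Samd9, an antiviral factor, was at 81.9, 108, 156 and 118 CPM in sham and 289.9, 272, 224 and 239 CPM in irradiated libraries, a log2 fold change of 1.14 ± 0.15. For both genes every irradiated library was above every sham library. Lgals9 (galectin-9), Ifi44l and Nmi rose with log2 fold changes of 1.61 ± 0.22, 2.49 ± 0.35 and 0.64 ± 0.10. Ifit3, which binds viral RNA, was at 31.8, 114, 269 and 112 CPM in sham and 1033, 973, 439 and 503 CPM in irradiated libraries, a log2 fold change of 2.48 ± 0.56 (adjusted p = 0.0045). Its sham libraries ranged widely, with library 1 lowest and library 3 highest, but stayed below the irradiated ones. Irf7, the factor that amplifies type I interferon, rose with a log2 fold change of 2.49 ± 0.44, Usp18, which dampens the interferon receptor, with 2.34 ± 0.43, and the antiviral GTPase Mx1 with 2.18 ± 0.32. The OAS enzymes, which make the activator of RNase L, were also higher, with log2 fold changes of 3.51 ± 0.72 for Oas2 and 3.61 ± 0.68 for Oas3; Oas1a (2.89 ± 0.42) and Oas1i (1.44 ± 0.32) are close copies, and reads shared between them make each value uncertain. The members that did not pass the test included Ifit1, with a log2 fold change of 1.70 and overlapping groups, and Epsti1, Adar, Trim21, Irgm, Trim25 and Xaf1, with 0.00 to 0.62.

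Genes that interferon-gamma induces rose in part. Of 20 tested, 12 (60%) were higher and 0 were lower, or 1 lower without sham LPS library 1, with a median log2 fold change of 0.81. Nos2, the inducible nitric oxide synthase, was at 8.32, 18.7, 22 and 18.4 CPM in sham and 465, 135, 106 and 206 CPM in irradiated libraries, a log2 fold change of 3.75 ± 0.70. Acod1, which makes itaconate, rose with a log2 fold change of 3.72 ± 0.49 at low CPM. Gbp5, which promotes inflammasome assembly, was at 45.9, 46.8, 62.5 and 45.7 CPM in sham and 263, 241, 141 and 214 CPM in irradiated libraries, a log2 fold change of 2.10 ± 0.20. The groups of all these genes were separate. The transcription factors Irf1 and Irf8 did not pass the test, with log2 fold changes of -0.06 and -0.32.

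Antigen presentation rose in its peptide-binding molecules. Of 18 tested genes of MHC class II presentation, 11 were higher (61.1%, against 15.6% of all genes) and 5 were lower (27.8%, against 13.3%). Cd74, the invariant chain that escorts class II molecules, was at 1203, 2217, 1927 and 2142 CPM in sham and 9289, 7897, 9599.8 and 9037 CPM in irradiated libraries, a log2 fold change of 2.26 ± 0.15. The class II genes RT1-Bb, RT1-Db1, RT1-Ba and RT1-Da rose with log2 fold changes of 3.30 ± 0.37, 2.85 ± 0.23, 2.46 ± 0.17 and 2.36 ± 0.16, and their master regulator Ciita with 2.34 ± 0.37. In contrast, the genes of the peptide-exchange molecule DM fell, with -0.62 ± 0.13 for RT1-DMa and -0.33 ± 0.09 for RT1-DMb, as did the protease Ctss (-0.76 ± 0.09). In class I presentation, 10 of 16 tested genes were higher (62.5%, against 15.6% of all genes). Only Calr was lower (-0.22 ± 0.07), which is 6.25% of the list against 13.3% of all genes. Without sham LPS library 1 or 4, 6 were higher, and the call for Calr was lost without sham LPS library 2 or 4 or irradiated LPS library 1 or 4. The class I light chain B2m and the immunoproteasome subunit Psmb9 rose with log2 fold changes of 0.50 ± 0.10 and 0.96 ± 0.12. Class I heavy chains such as RT1-S3 (1.26 ± 0.18) have near-identical copies in the rat, so their single values are uncertain. Markers of border-associated macrophages, which carry class II molecules, summed to 3315 to 4539 CPM in irradiated and 548 to 1160 CPM in sham libraries. Clec10a alone held 1901 to 2616 CPM of the irradiated and 160 to 421 CPM of the sham sums. Another marker, Cbr2, was at 55.2 to 57 CPM in irradiated and 45.2 to 53.7 CPM in sham libraries. The part of these cells in the class II increases was not tested.

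Receptors for uptake changed in both directions. Of 34 tested phagocytic, scavenger and Fc receptors, 16 were higher (47.1%, against 15.6% of all genes) and 10 were lower (29.4%, against 13.3%). The median log2 fold change was 0.29. The scavenger receptor Msr1 was at 17.2, 37.2, 32.2 and 27 CPM in sham and 259, 179, 211 and 216 CPM in irradiated libraries, a log2 fold change of 2.93 ± 0.21. The mincle receptor Clec4e, which binds mycobacterial glycolipids, rose with a log2 fold change of 3.76 ± 0.49, and the Fc gamma receptors Fcgr3a and Fcgr2b with 1.40 ± 0.11 and 1.15 ± 0.13; Fc gamma receptor genes resemble each other, and shared reads may blur these values. The mannose receptor Mrc1 and the haemoglobin scavenger Cd163 rose with log2 fold changes of 2.02 ± 0.28 and 1.66 ± 0.38, and both are also markers of the border-associated macrophages named above. The receptors that fell included Mertk, which takes up dying cells (-1.09 ± 0.12), its bridging ligand Pros1 (-0.76 ± 0.12), the immune checkpoint receptor Havcr2 (-1.46 ± 0.12) and the lipoprotein receptor Lrp1 (-0.78 ± 0.14). For Havcr2 the sham libraries were at 983, 1008, 1199 and 1098 CPM and the irradiated ones at 305, 428, 469 and 359 CPM, with no overlap.

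Of 20 tested complement genes, 7 were higher (35%, against 15.6% of all genes) and 2 were lower (10%, against 13.3%). The early component genes C1qa, C1qb and C1qc did not pass the test, with log2 fold changes of -0.20, -0.17 and 0.20. The integrins of complement receptors CR3 and CR4, Itgam and Itgax, rose with 0.87 ± 0.20 and 3.56 ± 0.24, as did the protective membrane protein Cd59 (2.56 ± 0.25), and the anaphylatoxin receptors C3ar1 (-0.55 ± 0.11) and C5ar2 (-0.49 ± 0.08) fell. Itgam encodes CD11b, an antigen of the sorting gate, and was at 366, 460.4, 291 and 352 CPM in sham and 523, 756, 743 and 669 CPM in irradiated libraries. Ptprc, the gene of CD45, the other antigen of the gate, was at 673, 668, 741 and 835 CPM and 1014, 1056, 1077 and 903 CPM. For both genes the irradiated libraries were all above the sham libraries.

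Lysosomal genes leaned the other way. Of 47 tested, 20 were lower (42.6%, against 13.3% of all genes) and 8 were higher (17%, against 15.6%). The median log2 fold change was -0.20. Npc1, a cholesterol transporter of the lysosomal membrane, was at 111, 139, 77.6 and 128 CPM in sham and 44.2, 65.1, 52.8 and 68.6 CPM in irradiated libraries, a log2 fold change of -0.98 ± 0.17. Every irradiated library was below every sham library. The membrane proteins Lamp1 and Lamp2 fell with -0.83 ± 0.14 and -0.75 ± 0.11, and the proton pump subunit Atp6v1a rose with 0.79 ± 0.12. Genes of cholesterol synthesis and uptake were lower for 7 of 22 tested (31.8%) and higher for 1 (4.55%; 0 without sham LPS library 2, 3 or 4 or irradiated LPS library 2 or 3), with Sc5d (-0.98 ± 0.16), Cyp51 (-0.79 ± 0.14), Msmo1 (-0.73 ± 0.10) and the regulator Srebf2 (-0.59 ± 0.09) among the decreases. Of 19 tested genes of lipid efflux and lipid droplets, 3 were higher (15.8%, close to the 15.6% of all genes). A further 6 were lower (31.6%, against 13.3%). The lipid droplet coat Plin2 was at 39.2, 51, 44.3 and 53.3 CPM in sham and 151, 129, 138 and 197 CPM in irradiated libraries, a log2 fold change of 1.71 ± 0.13. Soat1, which esterifies cholesterol, rose with 1.64 ± 0.14, while Srebf1 fell with -0.95 ± 0.17.

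Nearly all ribosomal protein genes rose. Of 67 tested, 64 (95.5%) were higher and 0 were lower, with a median log2 fold change of 0.73 over the list and values from 0.44 to 1.23 among the called members. Rplp0, a protein of the ribosomal stalk, was at 543, 615, 673 and 616 CPM in sham and 1345, 1385, 1386 and 1413 CPM in irradiated libraries. The libraries of each group lay close to each other and far from the other group, and the log2 fold change was 1.18 ± 0.07. The summed level of the list was 9515 to 11021 CPM in sham and 17208 to 18584 CPM in irradiated libraries. Many of these genes have processed copies in the genome, so single values depend on how shared reads were counted. Nuclear genes of oxidative phosphorylation were higher for 27 of 47 (57.4%) and lower for 1 (2.13%; 0 without sham LPS library 3 or 4 or irradiated LPS library 1, 3 or 4). The changes were small, with a median of 0.30, and 0 of the genes exceeded a 1.5-fold change in a test against that size. The cytochrome c oxidase subunits Cox5a and Cox6b1 rose with log2 fold changes of 0.68 ± 0.11 and 0.61 ± 0.09. Mitochondrial RNA was also a larger share of all counts in the irradiated libraries, as given above, and its part in these increases was not tested.

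Among 27 tested HIF-1 and glycolysis genes, 10 were higher (37%, against 15.6% of all genes) and 3 were lower (11.1%, against 13.3%). Hk3, a hexokinase of myeloid cells, rose with a log2 fold change of 4.11 ± 0.50, the phosphofructokinase Pfkp with 2.11 ± 0.34 and the transcription factor Hif1a with 0.70 ± 0.09. Slc16a3, which exports lactate, and P4ha1, a collagen prolyl hydroxylase, fell with -1.28 ± 0.17 and -1.26 ± 0.08. Iron and antioxidant genes were higher for 13 of 30 (43.3%, against 15.6% of all genes) and lower for 3 (10%, against 13.3%). The lower members numbered 1 without sham LPS library 3. Sod2, the mitochondrial superoxide dismutase, was at 236, 294, 418 and 362 CPM in sham and 2321, 1821, 1573 and 2516 CPM in irradiated libraries, a log2 fold change of 2.65 ± 0.17 (adjusted p = 5.81e-09). The peroxiredoxin Prdx5 rose with 1.81 ± 0.16, and every irradiated library was above every sham library for both genes. The ferritin chains Fth1 and Ftl1 rose with 0.50 ± 0.08 and 0.54 ± 0.10.

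Called genes among the p53 targets were close in share to those of all genes. Of 37 tested genes of this list, 8 were higher (21.6%, against 15.6% of all genes) and 4 were lower (10.8%, against 13.3%), and the median log2 fold change was -0.07. Cdkn1a, the cell cycle inhibitor p21 and a p53 target, was at 14.1, 24, 22 and 19 CPM in sham and 94.1, 67.5, 63.3 and 72.1 CPM in irradiated libraries, a log2 fold change of 1.91 ± 0.24 with no overlap. The apoptosis genes Pmaip1 (Noxa) and Fas rose with 2.44 ± 0.32 and 1.63 ± 0.26. Mdm2, which degrades p53, fell with -0.29 ± 0.09, and Ccng1, Bax, Sesn1 and Ddb2 did not pass the test, with log2 fold changes from -0.07 to 0.41. Of 25 tested senescence and secreted factor genes, 13 were higher (52%, against 15.6% of all genes) and 2 were lower (8%, against 13.3%). The lower members numbered 1 without irradiated LPS library 1, 3 or 4 or sham LPS library 4. Plau, the urokinase, was at 22.7, 16.2, 17 and 16 CPM in sham and 301, 314, 394 and 275 CPM in irradiated libraries, a log2 fold change of 4.16 ± 0.26, and its receptor Plaur rose with 3.86 ± 0.32. Cdkn2a, the locus of p16 and p19ARF, had 0 counts in the 4 sham libraries and 7, 33, 10 and 24 counts in irradiated libraries 1 to 4. Set against a floor of 3 counts over the group, it was at least 12.1-fold higher, and its level stayed under 1 CPM in all libraries. The protease gene Mmp12 rose with 4.92 ± 0.58, and Mmp9, a protease that neutrophils also carry, was highest in irradiated LPS library 1, at 20.7, 4.08, 2.79 and 2.93 CPM in the 4 irradiated libraries.

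Cell cycle genes were higher for 24 of 60 tested (40%, against 15.6% of all genes) and lower for 5 (8.33%, against 13.3%). The lower members numbered 3 without irradiated LPS library 1 or sham LPS library 3, and the median log2 fold change was 0.59. Summed levels of the list overlapped, at 1582 to 2099 CPM in sham and 1628 to 1869 CPM in irradiated libraries. The mean log2 CPM of its members was low, at 2.27 to 2.69 in sham and 3.16 to 3.40 in irradiated libraries. Top2a, a topoisomerase of dividing cells, was at 3.41, 11.3, 7.60 and 2.46 CPM in sham and 16.8, 21.1, 16.6 and 16.8 CPM in irradiated libraries, a log2 fold change of 1.52 ± 0.34. Stmn1, a microtubule regulator, rose with 1.60 ± 0.24, while the proliferation marker Mki67, at 8.00 to 18.9 CPM in sham and 9.87 to 16.2 CPM in irradiated libraries, did not pass the test (-0.07 ± 0.30). Aurka and Ttk, kinases of mitosis, fell with -1.03 ± 0.13 and -1.44 ± 0.16. Cdc6, a replication licensing factor, had 0 counts in the 4 sham libraries and 24, 139, 21 and 50 counts in irradiated libraries 1 to 4, which is at least 38.2-fold higher against a floor of 3 counts over the group.

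Of 21 tested immediate early genes, 6 were higher (28.6%, against 15.6% of all genes) and 3 were lower (14.3%, close to the 13.3% of all genes), the latter being Egr1, Btg2 and Ier3. Egr1, a zinc finger factor induced by growth signals, was at 139, 81, 85.4 and 109 CPM in sham and 45.5, 17.4, 31.7 and 32 CPM in irradiated libraries, a log2 fold change of -1.72 ± 0.28 with all irradiated libraries below all sham libraries. The nuclear receptors Nr4a1 and Nr4a3 and the AP-1 subunit Jun rose with 2.29 ± 0.40, 2.76 ± 0.74 and 1.18 ± 0.13, and Fos did not pass the test (-0.19 ± 0.31). Of 15 tested glucocorticoid-responsive genes, 6 were higher (40%, against 15.6% of all genes) and 4 were lower (26.7%, against 13.3%). The iron-binding protein Lcn2, which neutrophils also carry, and the metallothionein Mt2A were among the increases (3.55 ± 0.61 and 2.29 ± 0.37), and the kinase Sgk1 (-1.34 ± 0.15) and the leucine zipper gene Tsc22d3 (-0.75 ± 0.24) were among the decreases. The higher members numbered 3 without irradiated LPS library 1 or sham LPS library 2, and the lower members 2 without irradiated LPS library 1, 2 or 4 or sham LPS library 4.

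The largest changes outside the lists included membrane and matrix genes. Kcnn4, a calcium-activated potassium channel, was at 6.14, 11.3, 8.48 and 10.1 CPM in sham and 176, 167, 217 and 181 CPM in irradiated libraries, a log2 fold change of 4.36 ± 0.23. Sqor, a mitochondrial enzyme that oxidises hydrogen sulfide, was at 5.21, 4.38, 3.33 and 3.24 CPM in sham and 66.1, 63.4, 85.8 and 77 CPM in irradiated libraries, a log2 fold change of 4.18 ± 0.19. Both were several times higher in every irradiated library than in any sham library. Rgs18, a regulator of G-protein signalling, rose with 4.03 ± 0.35. The NK cell receptor gene Ly49si2 (4.21 ± 0.31) and the class I gene RT1-CE16 (5.14 ± 1.48, adjusted p = 0.02) headed the list as well, but both belong to families of near-identical copies. RT1-CE16 was at 915, 36.5, 548 and 534 CPM in the irradiated libraries, with library 2 far below the other 3, and the call was lost in 5 of 18 alternative analyses: with limma voom (adjusted p = 0.115), without sham LPS library 1, 2 or 4, and without both irradiated libraries numbered 1. Among decreases, Cdh23, a cadherin known from hair cells of the ear, was at 156, 197, 159 and 187 CPM in sham and 25, 29.1, 19.7 and 20 CPM in irradiated libraries, a log2 fold change of -2.90 ± 0.15. Its groups were well apart. The chains of basement membrane collagen Col4a2 and Col4a1 fell with -2.59 ± 0.72 and -2.38 ± 0.70, and the call for Col4a1 was lost in 7 of 18 alternative analyses and that for Col4a2 in 1, without both irradiated libraries numbered 1. The semaphorin Sema6a, the metalloprotease Mmp28 and the fatty acid elongase Elovl4 fell with -2.27 ± 0.38, -2.46 ± 0.21 and -2.15 ± 0.23. The remaining large decreases, Fam83d, Kcnj15, Tmem231, Tmc7 and Trim55, had log2 fold changes from -2.49 to -2.13.

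Markers of other leukocytes were higher in the irradiated group. Of 19 tested monocyte markers 15 (78.9%) were higher and 0 lower, and the list summed to 1627 to 2139 CPM in irradiated and 717 to 884 CPM in sham libraries. The monocyte chemokine receptor Ccr2 was at 3.10, 6.51, 1.58 and 4.31 CPM in sham and 57.1, 17.5, 19.7 and 29.3 CPM in irradiated libraries, a log2 fold change of 2.98 ± 0.42. Of 14 tested markers of border-associated macrophages 12 (85.7%) were higher, with 12 also without sham LPS library 1, and Maf was lower (-0.24 ± 0.09), a call that was lost without any 1 of the 4 sham LPS libraries or irradiated LPS library 1, 2 or 4. The lectin Clec10a, at 159.7, 421, 366 and 305 CPM in sham and 2616, 1901, 2311 and 2168 CPM in irradiated libraries, and the folate receptor Folr2 rose with 2.84 ± 0.22 and 2.07 ± 0.15. Of 27 tested T and NK cell markers 22 (81.5%) were higher and 0 lower, with 19 higher without sham LPS library 1. The T cell receptor component Cd3e was at 0.310, 0.281, 0.0585 and 0.112 CPM in sham and 2.82, 2.52, 2.29 and 6.59 CPM in irradiated libraries, and the killer cell protein perforin (Prf1) at 7.82, 34.6, 92.4 and 78.5 CPM and 523, 219.6, 272 and 512 CPM. All irradiated libraries were above all sham libraries for both genes, with log2 fold changes of 4.19 ± 0.74 and 2.84 ± 0.60. Of these 3 lists, 13, 12 and 20 members were called in this comparison and also between irradiated and sham rats given PBS.

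Of 15 tested neutrophil markers 12 (80%) were higher and 0 lower with LPS, and 7 were higher without irradiated LPS library 1 and 6 with limma voom. With PBS 2 were higher and 1 was lower, and the difference between the irradiation effects passed edgeR's test for 0 of the 15. The calgranulin S100a9 was at 44.2, 34.1, 12 and 8.22 CPM in sham and 1155, 182, 82.3 and 36.1 CPM in irradiated libraries. Only irradiated LPS libraries 1, 2 and 3 exceeded all sham libraries. Among granule genes, Ltf and Mpo were at 0 in all 8 LPS libraries, while Ngp and Camp were found in all of them. Ngp was at 11.6, 11.3, 6.84 and 0.951 CPM in sham and 268, 59.2, 28.2 and 11.0 CPM in irradiated libraries. Camp was at 3.97, 2.36, 1.40 and 1.01 CPM in sham and 100, 17.8, 9.65 and 3.77 CPM in irradiated libraries. The chemokine receptor Cxcr2 was at 2.61, 8.03, 3.92 and 5.93 CPM in sham and 111, 64.6, 110.3 and 86.8 CPM in irradiated libraries, a log2 fold change of 4.18 ± 0.37 with no overlap. The list summed to 2835 CPM in irradiated LPS library 1, to 558 to 774 CPM in the other 3 irradiated libraries and to 298 to 364 CPM in the sham libraries. Of 12 endothelial and mural markers 5 (41.7%, against 13.3% of all genes) were lower and 2 (16.7%, against 15.6%) were higher. The higher markers numbered 1 without sham LPS library 1, 2 or 4 or irradiated LPS library 1, 2 or 4. Their list summed to 316 to 398 CPM in irradiated and 544 to 739 CPM in sham libraries. B cell markers were higher for 3 of 9 (33.3%, against 15.6% of all genes) and lower for 2 (22.2%, against 13.3%). The summed level of that list, 349 to 396 CPM in irradiated and 691 to 944 CPM in sham libraries, includes Blnk, an adaptor that macrophages share, which fell with a log2 fold change of -1.27 ± 0.11. Of 12 oligodendrocyte markers 1 was higher (8.33%, against 15.6% of all genes) and 2 were lower (16.7%, against 13.3%). Of 12 astrocyte markers 1 was higher (8.33%) and 1 was lower (8.33%), both under the shares of all genes. The higher astrocyte markers numbered 0 without irradiated LPS library 1 or sham LPS library 2, 3 or 4. The lower ones numbered 2 without irradiated LPS library 1. Of 15 neuron and 4 red cell markers 0 passed edgeR's test, with or without irradiated LPS library 1. Neuron markers summed to 150 CPM in irradiated LPS library 1 and to 18.2 to 40.4 CPM in the other 7 LPS libraries, and red cell markers to 160 CPM in that library and 10.6 to 67.9 CPM in the others. The part of these cells in the pathway results was not tested.

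**Figure D3:**
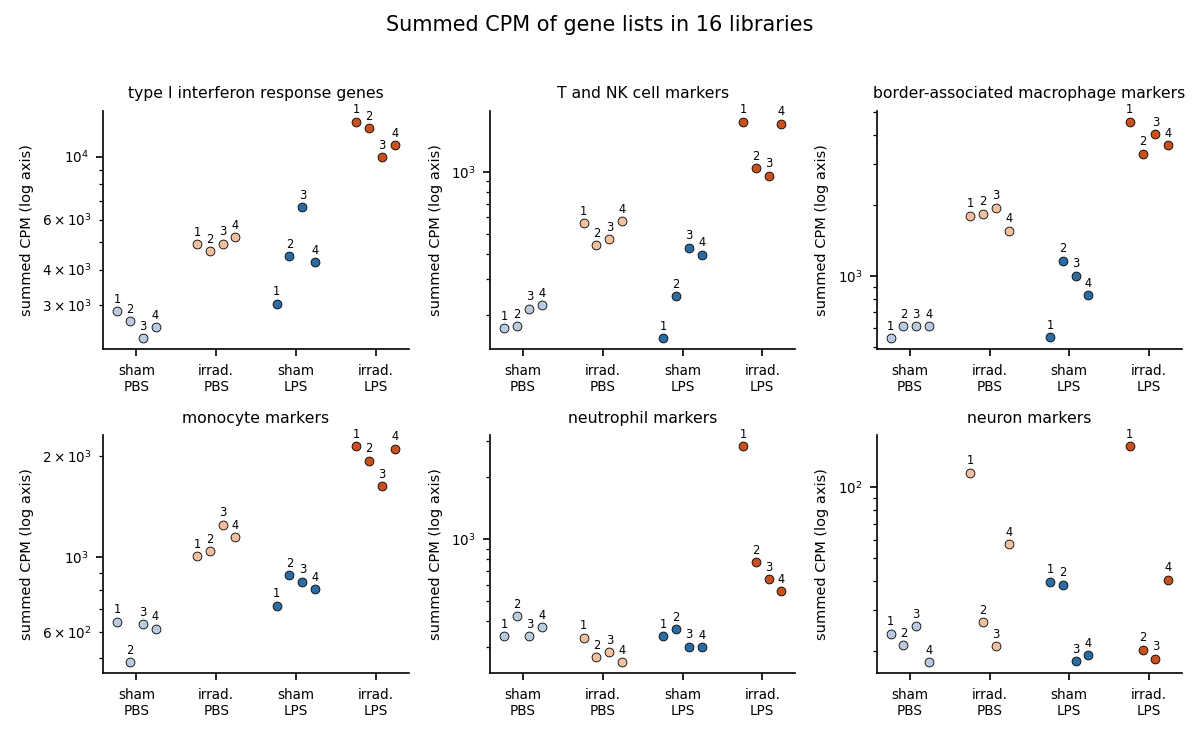
Summed CPM (log axis) of type I interferon response genes and of the markers of T and NK cells, border-associated macrophages, monocytes, neutrophils and neurons in the 16 libraries, each point numbered by its replicate. Irradiated LPS library 1 lies above the other libraries for neutrophil markers, at 2835 CPM, and sham LPS library 1 lies lowest of the LPS libraries for interferon response genes, at 3032 CPM.

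Irradiation also changed microglia in rats given PBS, where 1453 genes were higher and 1301 lower, 11.8% and 10.6% of those tested. The PBS and LPS comparisons share no library. Of the 3558 genes called with LPS, 1985 (55.8%) were called in the same direction with PBS, and these were 72.1% of the PBS calls. A further 25 genes were called in opposite directions, and 1548 were called with LPS alone, but the difference between the irradiation effects passed the test for 79 of the latter. The test of the difference itself, the log2 fold change of irradiation with LPS minus that with PBS, was passed by 83 genes in the positive and 87 in the negative direction, 0.674% and 0.707% of the genes tested. Scaling by library totals without TMM factors changed these splits: 2254 higher and 685 lower with PBS (76.7% higher, against 52.8%), and 64 positive and 175 negative differences (26.8% positive, against 48.8%). With LPS it gave 2306 higher and 1309 lower (63.8% higher, against 54.1%). Under the same scaling the median log2 fold change of all genes was 0.16 with PBS, against -0.01. With LPS it was 0.09, against 0.02.

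**Figure D4:**
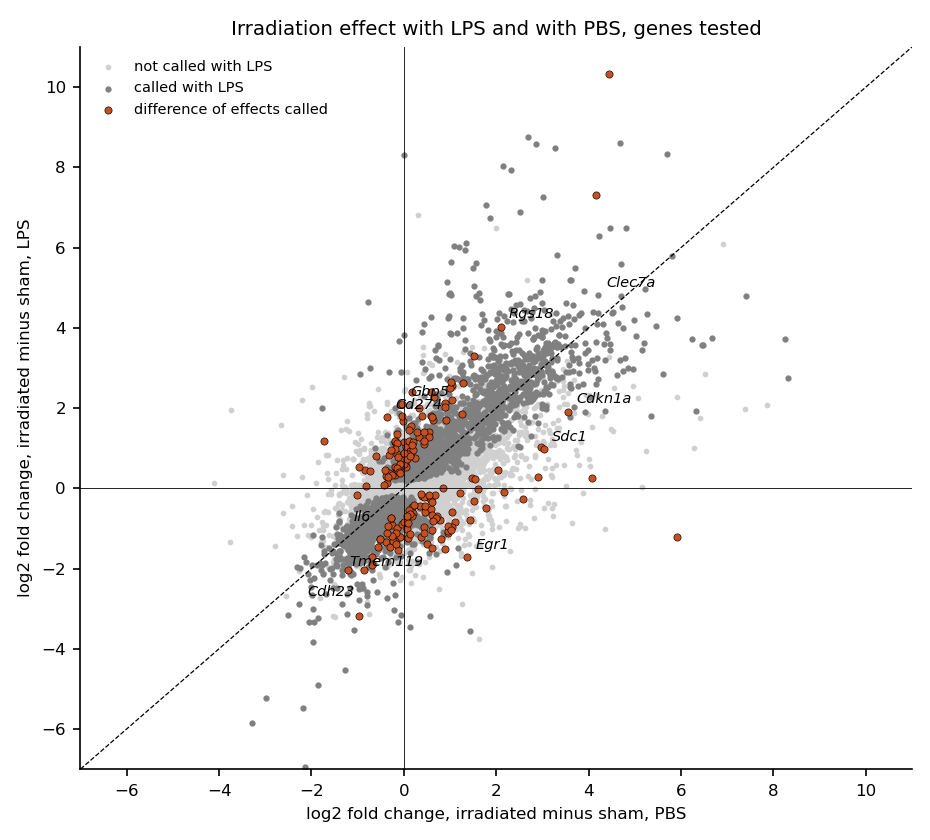
Log2 fold change of irradiated over sham with LPS (vertical axis) against that with PBS (horizontal axis) for all 12308 genes tested, with the 170 genes whose difference passed the test in orange and a dashed line of equal change. The genes called for a difference lie off the dashed line on either side, with 83 above it and 87 below it.

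Among the genes whose irradiation effect was larger with LPS was Cd274. Cd274, the checkpoint ligand PD-L1, was at 10.2, 14.4, 17.9 and 18.1 CPM in sham and 62.4, 47.5, 36.4 and 60.7 CPM in irradiated rats given LPS, and at 6.72, 9.92, 7.26 and 6.81 CPM and 5.71, 5.39, 6.73 and 6.10 CPM in the same groups given PBS. The groups lay apart with LPS and met at their edges with PBS, and the log2 fold changes were 1.77 ± 0.20 with LPS and -0.36 ± 0.21 with PBS, a difference of 2.13 ± 0.29 (adjusted p = 0.000835). Gbp5 was at 29.6, 27.2, 18.3 and 33.2 CPM in sham and 25.8, 21.5, 32.5 and 26.1 CPM in irradiated rats given PBS, and the difference between its log2 fold changes was 2.13 ± 0.28 (adjusted p = 0.000835). Its increase with irradiation was thus called with LPS, with a log2 fold change of 2.10, and not with PBS, with one of -0.03. In the list of NF-kB subunits and feedback genes, the difference was positive for 2 of 25, Tnip1 and Tnfaip3, and negative for 2, Trib1 and Bcl3. Tnip1, Tnfaip3 and the cytokine gene Ebi3 had differences of 1.81 ± 0.24, 1.24 ± 0.24 and 1.52 ± 0.31; that of Tnfaip3 was lost without both irradiated libraries numbered 1, and that of Ebi3 there and without sham PBS library 3. Sod2 was at 72.4, 62.8, 79.6 and 74.7 CPM in sham and 166, 138, 146 and 139.9 CPM in irradiated rats given PBS. It rose in both comparisons, more with LPS, with a difference of 1.63 ± 0.23 (adjusted p = 0.00117). Il1rap, a subunit of the interleukin-1 receptor, Pde4b, which degrades cyclic AMP, and Serpinb1a, an inhibitor of granulocyte proteases, had differences of 1.85 ± 0.29, 1.63 ± 0.23 and 1.66 ± 0.25. Hif1a rose with LPS only, with log2 fold changes of 0.70 and -0.07 and a difference of 0.77 ± 0.12. Of the 56 type I interferon response genes, 46 had a larger fitted log2 fold change with LPS than with PBS, where 30 were higher and 0 lower with a median of 0.77, but the difference passed the test only for Ddx58 and Stat2. That for Ddx58 (0.94 ± 0.22) was lost in 15 of 25 alternative analyses.

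Among the genes whose irradiation effect was lower with LPS were Egr1 and Btg2, 2 of 21 immediate early genes, and Btg2 and Cdkn1a, 2 of 37 p53 targets. Egr1 was at 3.05, 4.35, 5.14 and 6.10 CPM in sham and 16.6, 12.3, 11.8 and 8.21 CPM in irradiated rats given PBS, where it rose with a log2 fold change of 1.38 ± 0.30. With LPS it fell, and the difference was -3.09 ± 0.41 (adjusted p = 0.000944). Btg2, an antiproliferative p53 target, likewise rose with PBS (0.43 ± 0.11) and fell with LPS (-0.96 ± 0.11), a difference of -1.39 ± 0.16. Cdkn1a was at 5.35, 3.42, 3.44 and 3.28 CPM in sham and 43.1, 24.7, 64 and 50.1 CPM in irradiated rats given PBS. It rose in both comparisons, by 1.91 ± 0.24 with LPS and 3.56 ± 0.27 with PBS, and the difference of -1.66 ± 0.35 (adjusted p = 0.0244) was lost in 6 of 25 alternative analyses (adjusted p up to 0.207), among them those without sham LPS library 2, irradiated LPS library 4 or sham PBS library 2, 3 or 4. Sdc1, a heparan sulfate proteoglycan, Odc1, an enzyme of polyamine synthesis, and Rnf187, a ubiquitin ligase, had differences of -2.05 ± 0.34, -1.96 ± 0.34 and -2.02 ± 0.27. Sdc1 was at 21.6, 26.1, 49.3 and 23.7 CPM and 55.1, 64.2, 50 and 68.5 CPM in sham and irradiated rats given LPS and at 2.68, 2.76, 3.63 and 3.13 CPM and 29.2, 31.2, 20.9 and 18.7 CPM in those given PBS. Mtarc1 and Snx20 had differences of -2.0 ± 0.40 and -1.90 ± 0.31, and those of Pithd1 (-2.42 ± 0.55) and Rcn2 (-2.07 ± 0.43) were lost in 12 and 10 of 25 alternative analyses. The genes called in opposite directions numbered 9 that were higher with LPS and lower with PBS, among them the Fc receptor Fcgr2a and the glucose transporter Slc2a1, and 16 with the reverse pattern, among them Egr1, Btg2 and the kinase gene Pim1. In the cholesterol list, 12 of 22 genes were lower and 0 higher with PBS, with a median of -0.54, and the difference passed the test for Sqle and Fdft1.

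**Figure D5:**
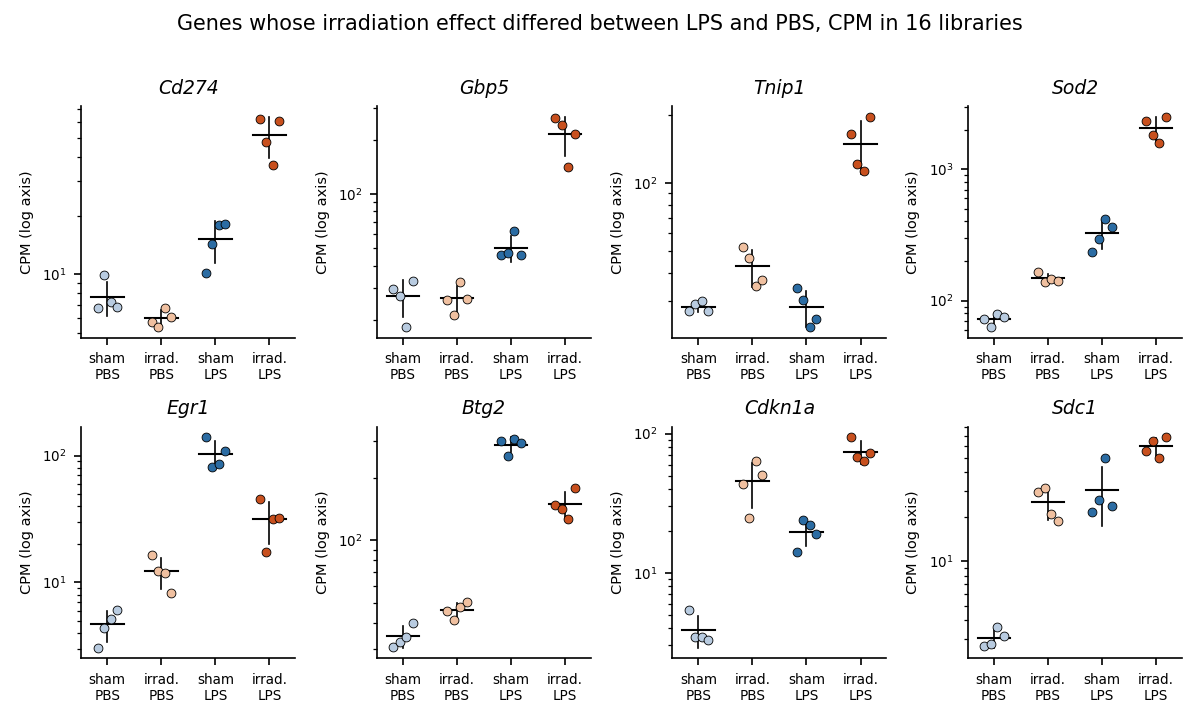
CPM (log axis) in the 16 libraries of 4 genes whose irradiation effect was larger with LPS (top: Cd274, Gbp5, Tnip1, Sod2) and 4 whose effect was lower with LPS (bottom: Egr1, Btg2, Cdkn1a, Sdc1), with points for libraries, bars for group means and lines for 1 SD. Cd274 and Gbp5 passed the test of irradiation with LPS and not with PBS, and Egr1 is higher in irradiated than in sham rats with PBS and lower with LPS.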

How the data were processed

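Libraries of sorted rat microglia were compared as irradiated against sham rats given LPS (4 against 4), with the 8 libraries of rats given PBS in the same model. The deposited counts are whole-number counts of reads per gene. The tools HTSeq 2.0.2, fastp 0.23.2 and FastQC 0.11.9 and the genome build mRatBN7.2 are listed in the submitters' processing notes, with no roles or order. Aligner, annotation and strand setting: not given in the sources used here. Per the labels' protocols, libraries were made with the NEBNext low input kit from total RNA. The table per symbol holds the sums of the single-sample files over gene identifiers (0 values differed); 6518 identifiers without a symbol (1.85 to 2.28% of the counts) were left out of library sizes and tests, and 246 symbols cover several identifiers.

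Genes were filtered with filterByExpr, leaving 12308 of 21842, scaled by TMM and tested with edgeR 4.0.16 (R 4.3.3): a quasi-likelihood fit over all 16 libraries with 1 mean per group, robust, Benjamini-Hochberg adjusted over all genes tested, threshold 0.05. The common biological coefficient of variation was 0.28. CPM are TMM-scaled, SEs belong to log2 fold changes, and levels of different genes are not compared. The scripts were tested on simulated counts with 200 changed genes. Library totals, given in the report, set the counting precision. Genes were named by these rules: the 12 largest increases and decreases with LPS among calls whose log2 CPM averages 3 or more and whose groups do not overlap, the 8 largest differences of effects in each direction, up to 4 members of each list with the smallest p, and 20 genes always given. Other genes named in the text were chosen after their values were seen. Some genes under these rules are not reported here. The 34 lists and the members were chosen with earlier results of these data known. Alternatives were DESeq2 1.42.0, limma 3.58.1 voom, other scalings, no filter, the compared groups alone, a replicate block, counts per identifier, thinned libraries, a 1.5-fold threshold and each library left out; leaving out both irradiated libraries numbered 1 was chosen after seeing the data. Promoters are from RefSeq (GRCr8).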

Additional observations from a re-analysis of the deposited data

Results flagged for a closer look

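In 29 of 356 groups of 4 LPS libraries examined (168 named genes and the summed marker lists), 1 library lay far from the other 3 by Dixon's criterion, which flags about 1 group in 20 by chance. Irradiated LPS library 1 held most of these for markers of other cells. Its summed levels were 2835 CPM for neutrophil, 150 CPM for neuron and 160 CPM for red cell markers, the highest of its group. Single markers highest in that library were Mmp9 at 20.7 CPM, the myelin gene Mobp at 35.9, the astrocyte genes Gjb6 at 2.77 and S100b at 74.0, the neuron genes Map2 at 31.2 and Stmn2 at 14.8, and the red cell genes Hbb-b1 at 7.05, Alas2 at 3.29 and Hba-a2 at 146 CPM. Serpinb1a was also highest there at 684 CPM and Cybb at 1795 CPM, and the lactate exporter Slc16a3 was lowest at 46.8 CPM.

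In the other irradiated LPS libraries, Cd68 was highest in library 2 at 607 CPM, Col4a2 was highest in library 3 at 12.3 CPM, Gbp2 was lowest in library 3 at 338 CPM and Apoe was lowest in library 4 at 10262 CPM. Among the sham LPS libraries, library 1 was highest for Plau at 22.7 CPM, Mmp9 at 0.559 CPM and Alas2 at 1.18 CPM and lowest for Cd59 at 7.51 CPM. Library 2 was highest for Sall1 at 341 CPM and lowest for Cox6a1 at 145 CPM. Library 3 was highest for Gbp5 at 62.5 CPM and Sdc1 at 49.3 CPM, and library 4 for Cox6b1 at 72.5 CPM and the B cell gene Cd79a at 2.07 CPM.

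For 30 named genes the log2 effect of irradiation differed between rats given LPS and rats given PBS in edgeR's test of the difference. The effect was larger with LPS by 2.13 for Cd274, 2.13 for Gbp5, 1.94 for Rgs18, 1.85 for Il1rap, 1.81 for Tnip1, 1.69 for the iron-sensing ubiquitin ligase subunit Fbxl5, 1.66 for Serpinb1a, 1.63 for Pde4b, 1.63 for Sod2, 1.52 for Ebi3, 1.24 for Tnfaip3, 1.22 for Prdx5, 1.22 for Ighm, 0.94 for Ddx58, 0.86 for Fcgr3a, 0.81 for Plin2, 0.77 for Hif1a and 0.77 for Ms4a6a. The difference was negative for Egr1 (-3.09), Pithd1 (-2.42), Rcn2 (-2.07), Sdc1 (-2.05), Rnf187 (-2.02), Mtarc1 (-2.0), Odc1 (-1.96), Snx20 (-1.90), Cdkn1a (-1.66), Btg2 (-1.39), Trib1 (-0.77) and Blnk (-0.76). Of these, Rgs18 lost the call in 16 of 25 alternative analyses, Ddx58 in 15, Pithd1 in 12, Plin2 in 11, Rcn2 in 10, Cdkn1a in 6, Ighm in 3, Ebi3 in 2 and Tnfaip3 in 1.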

How the results depend on the processing

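The counts with LPS, 1926 higher and 1632 lower, stayed within 1.5 times under the other tools, scalings and filters tried. They were 838 and 370 in a test against a 1.5-fold change, and ranged from 1690 to 1870 and from 1361 to 1556 when 1 library was left out. DESeq2 called 3551 of the 3558 genes again, limma voom 3199 and a fit of the compared groups alone 2875. With 1 LPS library left out, 2932 to 3146 of them were called again. With PBS, the counts were 2254 higher and 685 lower with library totals only, 634 and 149 against a 1.5-fold change, and 1228 to 1342 and 930 to 1161 with 1 library left out. The count of differences between the effects was less stable. It was 164 positive and 224 negative with DESeq2, 64 and 175 with library totals only, 13 and 13 against a 1.5-fold change, and 48 and 53 without both irradiated libraries numbered 1. With 1 library left out it ranged from 54 to 103 and from 51 to 107. It fell by more than 1.5 times for positive differences without sham PBS library 1 (54), irradiated PBS library 4 (55) or irradiated LPS library 4 (55), and for negative ones without sham PBS library 3 (51), irradiated PBS library 3 (53) or sham LPS library 4 (55). The lower counts against a 1.5-fold change follow from that threshold, and the cause of the other shifts was not tested. With the replicate number as a block, 1944 genes were higher and 1729 lower with LPS, 1515 and 1380 with PBS, and the differences were 93 positive and 133 negative. The labels do not say what a number shares, and deviations of same-numbered sham and irradiated LPS libraries correlated at 0.129, -0.0505, 0.118 and 0.00777, so the numbers were not used as pairs. In the immediate early list, 6 members were lower under the block, against 3.

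Of the 155 named genes called with LPS, 149 were called under every alternative without a fold threshold, and 0 reversed. Of the 30 named differences, 21 were called under every such alternative. Many of these genes were named for large changes or small p-values, so their survival was in part set by the choice. Of all 3558 genes called with LPS, DESeq2 kept 99.8% and a fit of the compared groups alone 80.8%. With 1 LPS library left out, 82.4 to 88.4% were kept. Depth limits genes under about 1 CPM, where single libraries hold few counts. Each group has 4 libraries with no record of separate animals, and the sources used here give no sorting yields or cell numbers.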

Other observations

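Genes outside the lists, chosen after their values were seen from those with the smallest p-values in irradiated against sham rats given LPS, included a set of annexins, which bind membranes in the presence of calcium. Anxa4, Anxa5 and Anxa6 rose with log2 fold changes of 2.46 ± 0.16, 3.30 ± 0.22 and 3.01 ± 0.15, and Anxa1 and Anxa2 with 3.46 ± 0.45 and 2.65 ± 0.32. Anxa3 fell with -0.42 ± 0.10, and Anxa7 did not pass the test (0.32 ± 0.12). The intermediate filament gene Vim and the scaffold gene Iqgap1 rose with 2.40 ± 0.15 and 3.46 ± 0.26. Receptor genes that rose were Il2rg, the common gamma chain of interleukin receptors (2.72 ± 0.24), and Csf2ra, a chain of the GM-CSF receptor (1.47 ± 0.10), while the shared chain Csf2rb did not pass the test (-0.06 ± 0.17). Among the decreases were Inpp5d (SHIP1), a phosphatase of phosphoinositides (-1.04 ± 0.09), Ptgs1, a cyclooxygenase (-1.37 ± 0.10), Il7r (-1.41 ± 0.10) and F11r, a junctional adhesion molecule (-1.61 ± 0.12). Nampt, an enzyme of NAD synthesis, rose with 1.40 ± 0.13 in rats given LPS and had a log2 fold change of 0.29 ± 0.13 with PBS that did not pass the test; Tnfrsf11a (RANK) fell with -1.38 ± 0.13 with LPS and had one of -0.16 ± 0.13 with PBS. In all of these genes except Csf2rb, the libraries of the groups given LPS did not overlap. Genes drawn by smallest p-value were taken only from calls without overlap, so for them the separation is no separate result.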
